A study of Mus musculus with 14 samples.

Results

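Solute carriers are membrane proteins that move sugars, amino acids, ions, metals, vitamins, carboxylates and nucleotides across the cell surface and the membranes of organelles. The carriers described here were all array probes with 1 gene symbol of the Slc name pattern, except the mitochondrial Slc25 family and the genes Slc2a1, Slc2a2 and Slc16a1. The rule used names only and took 226 of 23232 probes, which stood for 206 of the 15099 genes named on the array, in 48 families, and 18 of these genes had more than 1 probe. All 226 had values on all 14 arrays and all were tested. The name pattern also took 6 genes (7 probes) that are not carriers: the scaffold proteins Slc9a3r1 and Slc9a3r2, the adaptor Slc4a1ap, and the opposite-strand or neighbouring genes Slc7a6os, Slc6a19os and Slc36a1os. None of these 7 probes passed the limma test in any line, and their largest absolute log2 ratio was 0.74.

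The cells were derivatives of MIN6, an insulin-secreting line grown from mouse pancreatic beta cells. Sir2OE1 and Sir2OE2 are separately made lines infected with a pBabe retrovirus that carries mouse Sirt1, the gene of an NAD-dependent protein deacetylase, and selected in 280 µg/ml G418. Each was hybridised on two-colour arrays (3 arrays for Sir2OE1, 4 for Sir2OE2) against pooled RNA of Neo1 and Neo2, which carry the empty retrovirus. Sir2KD1 and Sir2KD2 were transfected with mU6pro vectors for a pair of small interfering RNAs against Sirt1 and a resistance plasmid, selected in 400 µg/ml G418, and hybridised (3 arrays for Sir2KD1, 4 for Sir2KD2) against the empty-vector line mU6pro. All lines came from MIN6 at passage 24, carried a neomycin resistance gene and had been kept for 4 days in 5 mM glucose. Each result below therefore belongs to 1 established line, or to the mean of a pair of them, in 1 glucose condition.

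In the beta cell, carriers set the supply of fuel, of amino acids for insulin synthesis and for insulin secretion, of zinc for insulin granules, and of the ions that shape membrane voltage and calcium. Several work as complexes: light chains such as Slc7a8 and Slc7a11 reach the surface with the heavy chain Slc3a2, and collectrin (gene Cltrn) brings amino acid carriers to the plasma membrane. Sodium-coupled carriers run on the gradient made by the sodium pump.

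Values are log2 ratios, turned so that the modified line is on the same side on every array. The sources used here do not say whether plus stands for more RNA in the line or in its control, and the probe of Sirt1 did not settle it (0.08 in Sir2OE1, -0.33 in Sir2OE2, -0.10 in Sir2KD1 and 0.13 in Sir2KD2, none called). So "plus" and "minus" name sides and never more or less RNA, and a comparison of sides between overexpressing and knockdown lines takes the same channel to be on top in both. A probe is "called" where limma's Benjamini-Hochberg adjusted p, over 23230 probes, was under 0.05; values after ± are standard errors of the fit, and per-array values follow slide order. The turn itself is an assumption: with the values read as line over control already, so without the turn and without a dye term, limma called 0 carrier probes in each of the 4 lines (with 5, 0, 18 and 1 at an unadjusted p under 0.05 in Sir2OE1, Sir2OE2, Sir2KD1 and Sir2KD2). These 0 calls cannot decide on the turn. Each probe had been centred to a sum of 0 over 6 of 7 arrays of a kind. On that reading, the centring had already removed what the lines of a kind share. No source says that the arrays of a line came from separate cultures, so a p-value here reflects only how arrays scatter, possibly for technical reasons, and a ratio set against 0 does not carry the variation of the controls themselves. Intensities were not used here, so levels, and the presence of beta-cell markers, could not be checked.

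Carriers as a group lay around 0. Their median log2 ratios lay between -0.0186 and 0.0189 over the 4 lines, against -0.00362 to 0.0236 for all probes. The 10th to 90th percentile of the carriers ran from -0.46 to 0.36 in Sir2OE1 (all probes -0.38 to 0.37), from -0.44 to 0.37 in Sir2OE2 (-0.38 to 0.33), from -0.62 to 0.53 in Sir2KD1 (-0.47 to 0.55) and from -0.44 to 0.37 in Sir2KD2 (-0.40 to 0.38). In Sir2OE1, 2 carrier probes were called (0.885%, against 1.06% of all probes). In Sir2OE2, 8 were called (3.54%, against 2.81% of all probes). In Sir2KD1, 11 were called (4.87%, against 3.59% of all probes), and in Sir2KD2, 6 were called (2.65%, against 1.34% of all probes). The carriers' shares thus lay near the background in Sir2OE1, Sir2OE2 and Sir2KD1, and the excess in Sir2KD2 rested on 6 probes. By side, 0 probes were called plus and 2 minus in Sir2OE1 (all probes 0.469% plus, 0.594% minus), 1 plus and 7 minus in Sir2OE2 (all probes 1.43% and 1.38%), 4 plus and 7 minus in Sir2KD1 (all probes 1.6% and 1.98%), and 1 plus and 5 minus in Sir2KD2 (all probes 0.603% and 0.74%). At an unadjusted p under 0.05 there were 28, 37, 48 and 39 carrier probes in the same line order (12.4%, 16.4%, 21.2% and 17.3%, against 9.61%, 13.2%, 16.8% and 13.4% of all probes).

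**Figure D1:**
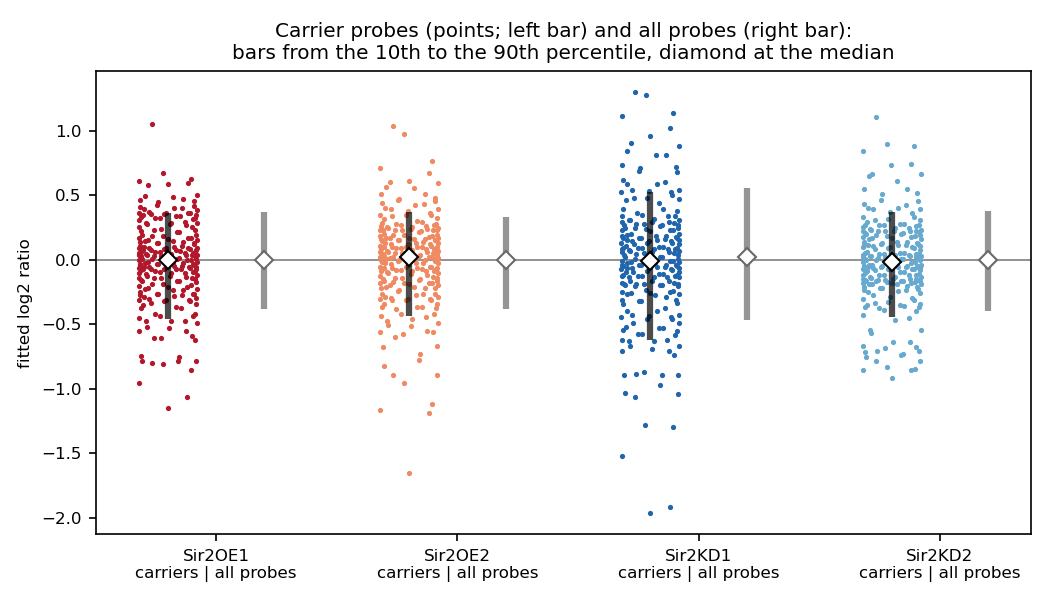
Fitted log2 ratio (vertical axis) of each of the 226 carrier probes (points) in Sir2OE1, Sir2OE2, Sir2KD1 and Sir2KD2. The left bar of each pair spans the 10th to 90th percentile of the carriers and the right bar that of all probes, with a diamond at the median; the bars of both sets overlap almost fully in every line, and the lowest carrier value is -1.97, for Slc37a2 in Sir2KD1.

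Altogether 20 carrier probes of 19 genes were called in at least 1 line (8.85%, against 6.4% of all probes), and 206 probes in none. Of the 20, 15 were called in 1 line, 4 in 2 lines and 1 in all 4. In all 27 calls every array of the line lay on the called side. The calls were picked by a small p over these same arrays, so this agreement is no separate support. The smallest absolute log2 ratio called was 0.49. Genes were grouped by family number, so that a group can hold carriers of another substrate, such as Slc5a5 (iodide) and Slc5a7 (choline) among the sugar carrier families. With the 6 genes that are not carriers left out, 5 of 28 genes of the amino acid carrier families were called in a line, 4 of 32 of the inorganic ion families, 3 of 24 of the families for vitamins, choline and lipids, 2 of 19 of the neurotransmitter and vesicular families, and 1 gene each of 23 in the metal families, 22 in the nucleoside and nucleotide sugar families, 22 in the families for organic ions, bile acids and peptides, 18 in the sugar families and 11 in the mono- and dicarboxylate families. These counts are per gene, while the 6.4% is per probe, and no share per gene over the whole array is given here. Genes with several probes have more chances of a call (the 28 amino acid genes had 34 probes). The counts therefore cannot be read as an excess in any group.

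**Figure D2:**
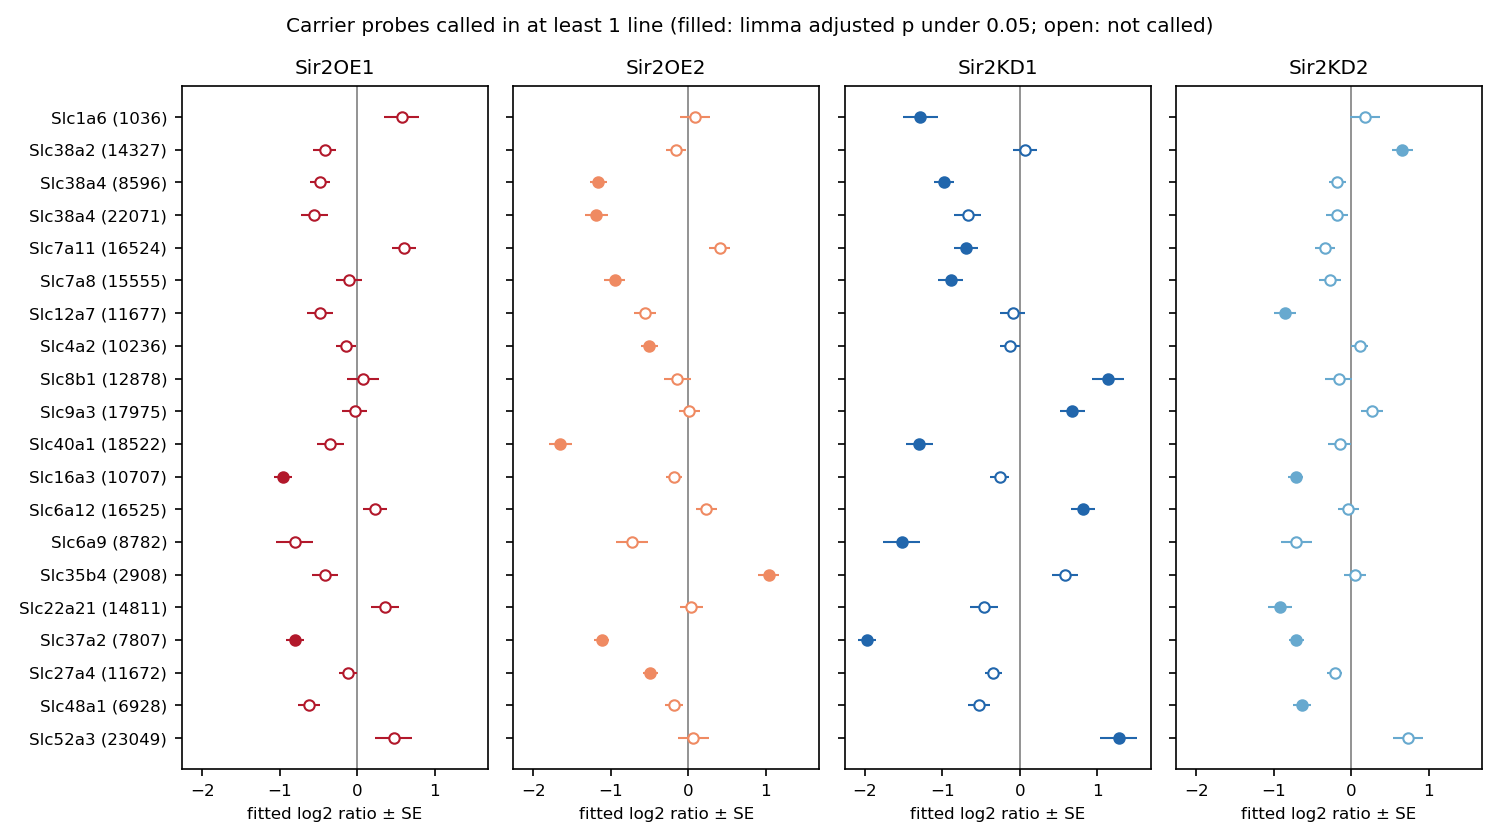
Fitted log2 ratio ± SE (horizontal axes) of the 20 carrier probes called in at least 1 line, 1 panel per line, with the probe number in brackets. Filled circles mark calls: 2 in Sir2OE1, 8 in Sir2OE2, 11 in Sir2KD1 and 6 in Sir2KD2, and only Slc37a2 is filled in all 4 panels.

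Of the 226 probes, that of Slc37a2 was the one called in all 4 lines, each time on the minus side. The gene (chromosome 9) encodes a sugar phosphate carrier of the endoplasmic reticulum. Its values were -0.80, -0.71 and -0.88 on the Sir2OE1 arrays and -1.30, -0.97, -1.12 and -1.08 on the Sir2OE2 arrays. On the Sir2KD1 arrays they were -1.81, -2.12 and -1.99, and on the Sir2KD2 arrays -0.74, -0.76, -0.65 and -0.68. All 14 arrays lay on the minus side, and the 3 Sir2KD1 arrays lay below all others. The fit gave -0.80 ± 0.12 in Sir2OE1 (limma adjusted p = 0.00839), -1.12 ± 0.10 in Sir2OE2 (limma adjusted p = 0.000171), -1.97 ± 0.12 in Sir2KD1 (limma adjusted p = 8.04e-06) and -0.71 ± 0.10 in Sir2KD2 (limma adjusted p = 0.00547), which are ratios of 1.74, 2.17, 3.91 and 1.63 in size. Sir2KD1 and Sir2KD2 differed from each other by -1.26 ± 0.15 (limma adjusted p = 0.00431), the single carrier called in that contrast (0.442% of carriers, against 0.689% of all probes). Sir2OE1 and Sir2OE2 differed by 0.32 (adjusted p = 0.706), and overexpressing minus knockdown lines by 0.38 (adjusted p = 0.111). Over the whole array, 29 probes were called in all 4 lines. Among them was Slc2a2, the glucose carrier GLUT2 that the name rule leaves out and that is named after its values were seen, at -0.90 in Sir2OE1, -1.50 in Sir2OE2, -2.08 in Sir2KD1 and -0.89 in Sir2KD2 (limma adjusted p = 0.0254, 0.000177, 5.19e-05 and 0.00878). The Slc37a2 call in Sir2OE1 was lost when any 1 of its 3 arrays was left out (highest limma adjusted p 0.131). The 2 lines of each kind share a control RNA, so their values are not independent of each other. The other members of the family, Slc37a3 (2 probes, between -0.19 and 0.25) and Slc37a4 (the glucose 6-phosphate carrier, between -0.35 and -0.10), were not called in any line.

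The promoter of Slc37a2 is shown because its probe was the one carrier probe called in all 4 lines. The sequence is RefSeq's, from 250 bases before to 50 after the start of the gene on GRCm38.p6 (chr9:37255689-37255988, minus strand), with capitals marking the heptamer TGACTCA, the AP-1 motif, here on the strand opposite to the gene at 107 to 101 bases before the start.
Slc37a2: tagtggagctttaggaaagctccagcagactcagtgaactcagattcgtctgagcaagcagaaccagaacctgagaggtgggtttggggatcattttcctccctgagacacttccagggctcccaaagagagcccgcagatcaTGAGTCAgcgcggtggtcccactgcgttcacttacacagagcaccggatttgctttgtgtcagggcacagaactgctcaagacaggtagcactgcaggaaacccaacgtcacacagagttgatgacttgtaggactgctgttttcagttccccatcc
Of 32851 RefSeq promoter windows of this length, 1709 (5.20%) hold TGACTCA on either strand. So do 8 of 215 windows of genes taken by the name pattern (3.72%, 165 genes matched). Among these 8 are Slc6a19os and Slc9a3r2, which are not carriers. The match is a description of the letters only.

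**Figure D3:**
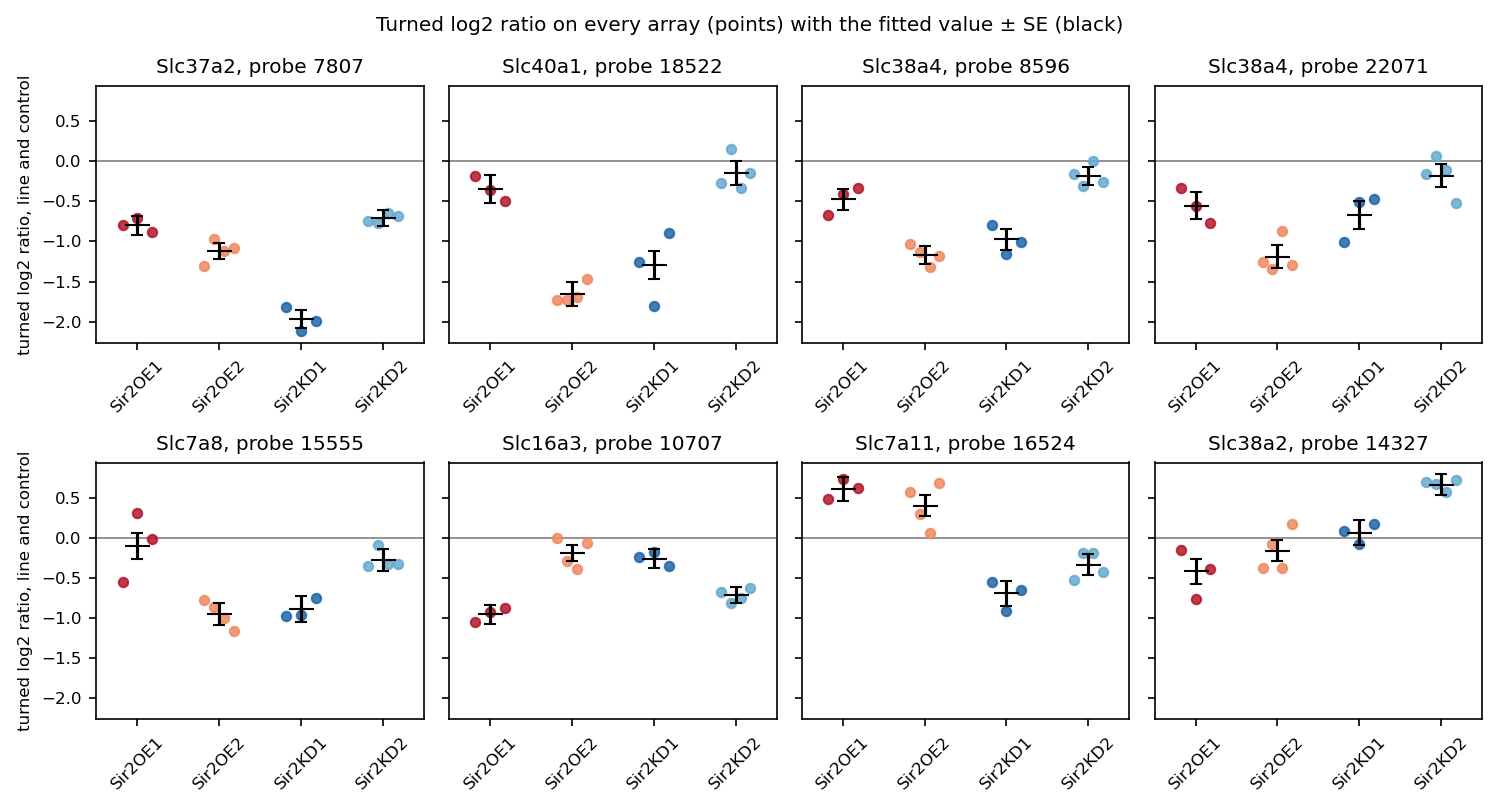
Turned log2 ratio (vertical axes) on every array of Sir2OE1, Sir2OE2, Sir2KD1 and Sir2KD2 (points), with the fitted value ± SE in black, for 8 carrier probes. Slc37a2 is below 0 on all 14 arrays, Slc40a1, Slc38a4 and Slc7a8 are lowest in Sir2OE2 and Sir2KD1, Slc16a3 in Sir2OE1 and Sir2KD2, and Slc7a11 lies above 0 in the overexpressing and below 0 in the knockdown lines.

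Slc37a2, Slc40a1, Slc7a8 and a probe of Slc38a4 were called in both Sir2OE2 and Sir2KD1, all on the minus side. Slc40a1 (chromosome 1) encodes ferroportin, the exporter of iron from cells. Its values were -0.18, -0.36 and -0.50 on the Sir2OE1 arrays and -1.74, -1.74, -1.69 and -1.46 on the Sir2OE2 arrays. On the Sir2KD1 arrays they were -1.25, -1.81 and -0.90, and on the Sir2KD2 arrays -0.27, 0.15, -0.33 and -0.14. No array of Sir2OE2 or Sir2KD1 overlapped with the arrays of the other 2 lines. Fitted values were -0.35 ± 0.17 in Sir2OE1 (adjusted p = 0.591) and -1.66 ± 0.15 in Sir2OE2 (limma adjusted p = 0.000171, a 3.15-fold ratio). In the knockdown lines they were -1.30 ± 0.17 in Sir2KD1 (limma adjusted p = 0.00239, a 2.45-fold ratio) and -0.15 ± 0.15 in Sir2KD2 (adjusted p = 0.735). The difference Sir2OE1 minus Sir2OE2 was 1.31 ± 0.23 (limma adjusted p = 0.0471), 1 of 2 carriers called in that contrast (0.885%, against 0.323% of all probes). That call was lost without any 1 of the 7 overexpression arrays, or without Sir2KD1 slide 1 or any 1 Sir2KD2 array (highest limma adjusted p 0.213). Sir2KD1 minus Sir2KD2 was -1.15 and missed the threshold (adjusted p = 0.0579).

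Slc38a4 (chromosome 15) encodes a carrier of neutral and cationic amino acids and is imprinted in the mouse. Its first probe (8596) read -1.03, -1.13, -1.32 and -1.18 in Sir2OE2 and -0.79, -1.16 and -1.001 in Sir2KD1, against -0.67, -0.41 and -0.34 in Sir2OE1 and -0.16, -0.31, -0.001 and -0.26 in Sir2KD2. These fitted to -1.17 ± 0.11 in Sir2OE2 (limma adjusted p = 0.000245) and -0.97 ± 0.13 in Sir2KD1 (limma adjusted p = 0.00232), with -0.48 ± 0.13 in Sir2OE1 and -0.18 ± 0.11 in Sir2KD2 not called. The second probe (22071) had the same order: -1.19 ± 0.14 in Sir2OE2 (limma adjusted p = 0.00123), -0.67 ± 0.17 in Sir2KD1 (adjusted p = 0.0612), -0.55 ± 0.17 in Sir2OE1 and -0.18 ± 0.14 in Sir2KD2.

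Slc7a8 encodes LAT2, a light chain that exchanges neutral amino acids. Its values were -0.78, -0.86, -1.002 and -1.17 in Sir2OE2 and -0.97, -0.96 and -0.76 in Sir2KD1, against -0.55, 0.31 and -0.02 in Sir2OE1 and -0.35, -0.09, -0.33 and -0.32 in Sir2KD2. The arrays of Sir2OE2 and Sir2KD1 again lay below all arrays of the other lines. The fit gave -0.95 ± 0.14 in Sir2OE2 (limma adjusted p = 0.00336) and -0.89 ± 0.16 in Sir2KD1 (limma adjusted p = 0.014); the Sir2KD1 call was lost without its slide 1 (highest adjusted p 0.142) or its slide 2. Cltrn, which is no carrier but escorts amino acid carriers to the membrane and is abundant in beta cells, had the same lines called: -0.92 ± 0.09 in Sir2OE2 (limma adjusted p = 0.000355) and -1.35 ± 0.11 in Sir2KD1 (limma adjusted p = 7.39e-05), beside -0.38 ± 0.11 in Sir2OE1 and -0.02 ± 0.09 in Sir2KD2. The 4 shared carrier probes were 50% of the 8 called in Sir2OE2 and 36.4% of the 11 called in Sir2KD1. Over all probes, 204 were called in both lines, 31.2% of those of Sir2OE2 and 24.5% of those of Sir2KD1, and 166 of the 204 were on the same side. These 2 lines share no control RNA, but both came from MIN6 at passage 24, and why they share calls was not tested.

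Slc16a3 encodes MCT4, a proton-coupled carrier known for the export of lactate. It was called in the other pair of lines, Sir2OE1 and Sir2KD2, on the minus side in both. Its values were -1.05, -0.93 and -0.88 in Sir2OE1 and -0.68, -0.81, -0.75 and -0.63 in Sir2KD2, against -0.01, -0.28, -0.39 and -0.07 in Sir2OE2 and -0.24, -0.17 and -0.36 in Sir2KD1. The groups did not overlap. The fit gave -0.96 ± 0.12 in Sir2OE1 (limma adjusted p = 0.00405) and -0.72 ± 0.10 in Sir2KD2 (limma adjusted p = 0.00624), beside -0.19 ± 0.10 in Sir2OE2 and -0.26 ± 0.12 in Sir2KD1. Leaving out Sir2OE1 slide 3 took the Sir2OE1 call away (limma adjusted p = 0.0655), and Sir2OE1 minus Sir2OE2 was -0.77 (adjusted p = 0.0904). Slc16a3 and Slc37a2 were both of the 2 carriers called in Sir2OE1 and 33.3% of the 6 called in Sir2KD2; over all probes 66 were shared, 26.7% of those of Sir2OE1 and 21.2% of those of Sir2KD2, and 29 of the 66 were on the same side. The other 7 monocarboxylate carriers of the Slc16 family were not called in any line. With so few genes this is near the background, as 6.4% of all probes were called in at least 1 line.

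The difference between overexpressing and knockdown lines was called for 3 carriers (1.33%, against 2.66% of all probes): Slc7a11 and Slc22a21 on the plus side (all probes 1.54%) and Slc38a2 on the minus side (all probes 1.12%). Slc7a11 (chromosome 3) encodes xCT, which takes up cystine in exchange for glutamate and so feeds glutathione synthesis. Its values were 0.49, 0.73 and 0.62 in Sir2OE1 and 0.57, 0.29, 0.05 and 0.68 in Sir2OE2, against -0.56, -0.91 and -0.65 in Sir2KD1 and -0.53, -0.19, -0.19 and -0.43 in Sir2KD2. All 7 overexpression arrays were plus and all 7 knockdown arrays minus. The mean over the overexpressing lines was 0.50 and over the knockdown lines -0.52, a difference of 1.02 ± 0.14 (limma adjusted p = 0.0032, a 2.03-fold ratio), which stayed called with any 1 of the 14 arrays left out (highest limma adjusted p 0.0189). It was not called with the 2 lines of a kind as the replicates (1.02, limma adjusted p = 0.543), nor with the knockdown ratios turned against the overexpression ratios (-0.01, limma adjusted p = 0.98), and neither setting called Slc22a21 or Slc38a2. Against their own controls, Sir2OE1 stood at 0.61 ± 0.15 (adjusted p = 0.124), Sir2OE2 at 0.40 ± 0.13 (adjusted p = 0.175), Sir2KD1 at -0.69 ± 0.15 (limma adjusted p = 0.0341) and Sir2KD2 at -0.34 ± 0.13 (adjusted p = 0.283). The Sir2KD1 call was lost without any 1 of its own arrays, Sir2OE1 slide 2, Sir2OE2 slide 1 or 2, or Sir2KD2 slide 4 (highest adjusted p 0.143). The heavy chain Slc3a2 lay near 0 (0.17, 0.10, 0.05 and 0.03 in Sir2OE1, Sir2OE2, Sir2KD1 and Sir2KD2, none called).

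Slc38a2 encodes SNAT2, a sodium-coupled carrier of neutral amino acids whose gene responds to amino acid shortage. Its values were -0.15, -0.76 and -0.39 in Sir2OE1 and -0.37, -0.08, -0.38 and 0.17 in Sir2OE2, against 0.08, -0.08 and 0.17 in Sir2KD1 and 0.70, 0.67, 0.56 and 0.72 in Sir2KD2. The Sir2KD2 arrays lay above all others, while those of Sir2OE2 and Sir2KD1 overlapped. Sir2KD2 was called at 0.66 ± 0.13 (limma adjusted p = 0.0371). The mean was -0.29 over the overexpressing lines and 0.36 over the knockdown lines, a difference of -0.65 ± 0.14 (limma adjusted p = 0.039). This difference was lost on leaving out any 1 of 12 of the 14 arrays, all but Sir2OE1 slide 1 and Sir2OE2 slide 4 (highest adjusted p 0.105), and the Sir2KD2 call on leaving out any 1 of 8, among them each Sir2KD2 array (highest adjusted p 0.151). The probe of Atf4, a transcription factor of the response to amino acid shortage, was not called (0.20, -0.10, -0.10 and 0.03 in Sir2OE1, Sir2OE2, Sir2KD1 and Sir2KD2).

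The promoters of these 2 amino acid carriers are shown because their probes lay on opposite sides of the same contrast. Both are RefSeq windows of GRCm38.p6, Slc7a11 at chr3:50443564-50443863 and Slc38a2 at chr15:96699679-96699978, each on the minus strand, with capitals marking TGATGCAA, the core of the amino acid response element. Slc7a11 holds it at 66 to 59 bases before the start on the gene's strand and at 47 to 40 bases before the start on the opposite strand. The Slc38a2 window holds neither this motif nor TGACTCA. The windows run only from 250 bases before to 50 after the start, so sites elsewhere in a gene are not seen.
Slc7a11: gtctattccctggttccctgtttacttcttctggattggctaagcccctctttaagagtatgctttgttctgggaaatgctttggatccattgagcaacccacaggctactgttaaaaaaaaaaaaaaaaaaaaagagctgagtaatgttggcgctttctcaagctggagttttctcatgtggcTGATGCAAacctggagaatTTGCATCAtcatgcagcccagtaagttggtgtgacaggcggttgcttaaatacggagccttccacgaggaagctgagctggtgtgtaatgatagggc
Slc38a2: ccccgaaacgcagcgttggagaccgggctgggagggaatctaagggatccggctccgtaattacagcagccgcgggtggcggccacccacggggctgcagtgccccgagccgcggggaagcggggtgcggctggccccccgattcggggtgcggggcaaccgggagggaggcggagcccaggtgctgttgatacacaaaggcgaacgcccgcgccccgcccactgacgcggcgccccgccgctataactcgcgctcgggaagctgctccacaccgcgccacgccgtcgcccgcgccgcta
TGATGCAA occurs on either strand in 294 of 32851 promoter windows (0.895%). It also occurs in 6 of the 215 windows of genes taken by the name pattern (2.79%), those of Slc17a1, Slc1a4, Slc50a1, Slc7a11 and Slc7a7. Apart from Slc7a11, none of these carriers was called in any line, where 6.4% of all probes were called in at least 1 line.

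Slc22a21 encodes a carnitine carrier of the organic cation family; its close relatives Slc22a4 and Slc22a5 had probes of their own. Its values were 0.39, 0.43 and 0.28 in Sir2OE1 and -0.11, 0.14, 0.31 and -0.18 in Sir2OE2, against -0.58, -0.19 and -0.57 in Sir2KD1 and -1.38, -0.45, -0.80 and -1.04 in Sir2KD2. Every knockdown array was below every overexpression array. The means were 0.20 over the overexpressing lines and -0.69 over the knockdown lines, a difference of 0.89 ± 0.17 (limma adjusted p = 0.0186), which was lost without Sir2OE1 slide 2 or 3, Sir2OE2 slide 3 or Sir2KD1 slide 1 (highest adjusted p 0.0751). Sir2KD2 alone was called at -0.92 ± 0.15 (limma adjusted p = 0.0168), and not without its slide 1, 3 or 4 (highest adjusted p 0.0977). Slc22a5 was between -0.36 and 0.13 in the 4 lines and not called.

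**Figure D4:**
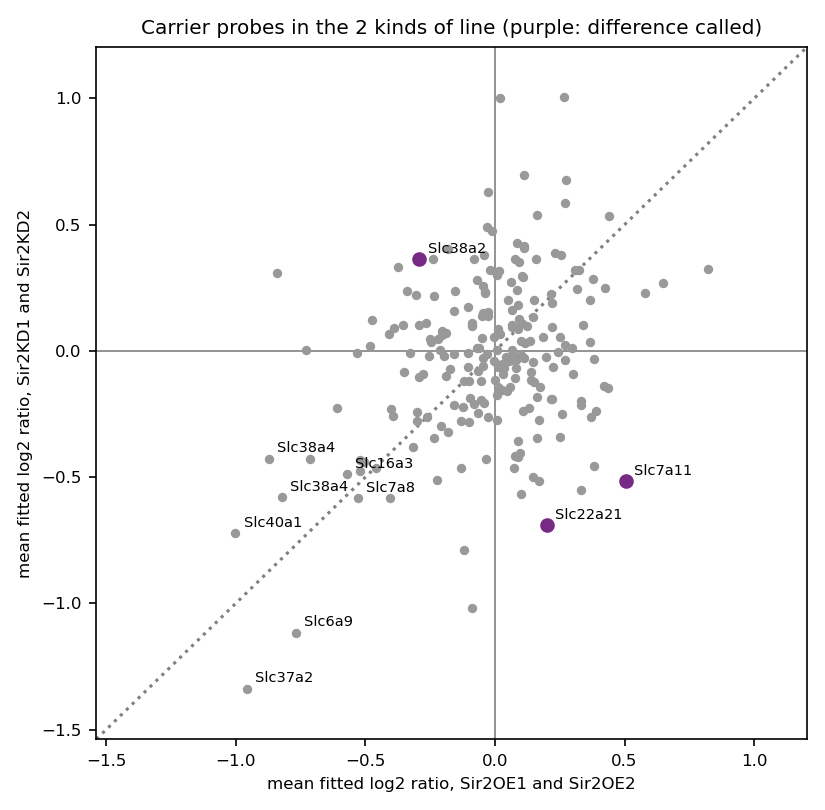
Each carrier probe by its mean fitted log2 ratio over Sir2OE1 and Sir2OE2 (horizontal axis) and over Sir2KD1 and Sir2KD2 (vertical axis); purple marks the 3 probes whose difference was called and the dotted line marks equal means. Slc7a11 (0.50 and -0.52) and Slc22a21 (0.20 and -0.69) lie at the lower right, Slc38a2 (-0.29 and 0.36) at the upper left, and Slc37a2 is minus on both axes.

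Sir2KD1 had 6 further calls, 2 minus and 4 plus, in carriers not called in any other line. On the minus side, Slc6a9 encodes GlyT1, a glycine carrier. Its Sir2KD1 arrays read -1.62, -2.11 and -0.93, a fit of -1.52 ± 0.24 (limma adjusted p = 0.00625), lost without slide 1 (limma adjusted p = 0.0949). Sir2OE1 stood at -0.81 ± 0.24, Sir2OE2 at -0.73 ± 0.20 and Sir2KD2 at -0.71 ± 0.20, all minus and not called. Slc1a6 encodes EAAT4, a glutamate carrier best known from the cerebellum. It read -1.66, -0.70 and -1.41 in Sir2KD1, a fit of -1.28 ± 0.23 (limma adjusted p = 0.0121), lost without slide 1 or 3 (highest adjusted p 0.167), beside 0.58 in Sir2OE1, 0.08 in Sir2OE2 and 0.18 in Sir2KD2.

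On the plus side of Sir2KD1, Slc52a3, a riboflavin carrier, read 1.26, 1.48 and 1.11 (fit 1.28 ± 0.23, limma adjusted p = 0.0149), beside 0.47 in Sir2OE1, 0.06 in Sir2OE2 and 0.73 in Sir2KD2. Slc8b1, the sodium-calcium exchanger of mitochondria, read 1.34, 1.18 and 0.90 (fit 1.14 ± 0.21, limma adjusted p = 0.014), beside 0.08 in Sir2OE1, -0.14 in Sir2OE2 and -0.16 in Sir2KD2. Both calls were lost without Sir2KD1 slide 1 or 2 (highest adjusted p 0.116 for Slc52a3 and 0.168 for Slc8b1). Slc6a12, a carrier of betaine and GABA, read 1.15, 0.48 and 0.76 (fit 0.81 ± 0.16, limma adjusted p = 0.0187), lost without slide 1 or 3 (highest adjusted p 0.264). Slc9a3, the sodium-proton exchanger NHE3 of kidney and gut, read 0.57, 0.76 and 0.72 (fit 0.68 ± 0.16) and lay at the threshold itself (limma adjusted p = 0.04995), so that leaving out any 1 of 12 of the 14 arrays, all but Sir2OE1 slides 2 and 3, ended the call (highest adjusted p 0.162).

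In Sir2KD2, 2 more carriers were called, both minus. Slc12a7 encodes the potassium-chloride cotransporter KCC4 and read -0.38, -1.11, -1.10 and -0.83 (fit -0.86 ± 0.14, limma adjusted p = 0.0144), beside -0.48 in Sir2OE1, -0.56 in Sir2OE2 (adjusted p = 0.0672) and -0.09 in Sir2KD1. The Sir2KD2 call was lost without its slide 2, 3 or 4 (highest adjusted p 0.0948). Slc48a1 encodes a carrier of haem out of endosomes and read -0.85, -0.47, -0.70 and -0.52 (fit -0.64 ± 0.12, limma adjusted p = 0.0292), beside -0.62 in Sir2OE1 (adjusted p = 0.0787), -0.19 in Sir2OE2 and -0.53 in Sir2KD1 (adjusted p = 0.0704). Leaving out any 1 Sir2KD2 array, or Sir2OE2 slide 1 or 3, ended the call (highest adjusted p 0.148).

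Sir2OE2 had 3 further calls of its own. Slc35b4, a carrier of UDP-sugars in the Golgi, was the one on the plus side: probe 2908 read -0.63, -0.41 and -0.21 in Sir2OE1 and 1.07, 1.21, 0.97 and 0.89 in Sir2OE2. The fit gave -0.42 in Sir2OE1 (adjusted p = 0.426) and 1.03 ± 0.14 in Sir2OE2 (limma adjusted p = 0.00228), and Sir2OE1 minus Sir2OE2 was -1.45 ± 0.22 (limma adjusted p = 0.0229), lost without any 1 of the 7 overexpression arrays (highest adjusted p 0.129). The other probe of the gene (2674) gave -0.22, -0.36, -0.11 and -0.09 in Sir2OE1, Sir2OE2, Sir2KD1 and Sir2KD2, none called, so the 2 probes disagreed in Sir2OE2. Slc4a2, the chloride-bicarbonate exchanger AE2, read -0.55, -0.36, -0.45 and -0.66 in Sir2OE2 (fit -0.51 ± 0.11, limma adjusted p = 0.0357). Slc27a4, a fatty acid transport protein, read -0.49, -0.56, -0.54 and -0.37 in Sir2OE2 (fit -0.49 ± 0.10, limma adjusted p = 0.02). Both calls were lost without any 1 Sir2OE2 array, and that of Slc4a2 also without Sir2KD1 slide 1 or any 1 Sir2KD2 array (highest adjusted p 0.205 for Slc4a2 and 0.137 for Slc27a4). Slc4a2 and Slc27a4 are named after their values were seen.

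Of 13 carriers listed for a described role in beta cells, 9 had a singly named probe and the others, among them Slc30a8, the zinc carrier of insulin granules, were not analysed here. Beside Slc7a11 and Slc38a2, none of the 9 was called in any line. Of all probes, 6.4% were called in at least 1 line, so in so short a list uncalled genes are near the background. Slc7a5, the large neutral amino acid carrier LAT1, stood at 0.34 in Sir2OE1 (adjusted p = 0.357), 0.43 in Sir2OE2 (adjusted p = 0.0641), -0.01 in Sir2KD1 and -0.06 in Sir2KD2, with all 7 overexpression arrays plus. Slc12a2, the sodium-potassium-chloride cotransporter that loads the cell with chloride, lay between -0.12 and 0.06. Slc1a5, a glutamine carrier, read 0.08, -0.44, 0.54 and 0.26 in Sir2OE1, Sir2OE2, Sir2KD1 and Sir2KD2, and the sodium-bicarbonate cotransporter Slc4a4 read 0.58, 0.15, -0.03 and 0.10. Slc8a1, the plasma membrane sodium-calcium exchanger, lay between -0.63 and 0.24 over its 2 probes. The 2 probes of Slc17a6, a vesicular glutamate carrier, disagreed in the knockdown lines. Probe 6744 read 0.58 in Sir2KD1 and 0.03 in Sir2KD2, and the other read -1.07 in Sir2KD1 and 1.11 in Sir2KD2. In the overexpressing lines probe 6744 stood at -0.79 in Sir2OE1 and -0.89 in Sir2OE2, neither called. Its overexpression minus knockdown value was -1.15 (limma adjusted p = 0.242). These values of the other probe are not given here.

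In some families no member was called. Over all probes 1.06%, 2.81%, 3.59% and 1.34% were called in Sir2OE1, Sir2OE2, Sir2KD1 and Sir2KD2. In families this small, 0 calls is therefore near the background. Among the 17 zinc carriers of the Slc30 and Slc39 families, limma called 0 in each line (3, 2, 1 and 1 at an unadjusted p under 0.05 in Sir2OE1, Sir2OE2, Sir2KD1 and Sir2KD2), with values between -0.62 and 0.51. The 5 facilitated sugar carriers of the Slc2 family measured here (Slc2a3, Slc2a4, Slc2a5, Slc2a8 and Slc2a9) likewise gave 0 calls (unadjusted 2, 1, 0 and 1), between -0.74 and 0.52. A log2 ratio of at least 1 in size was not always called: of 22 such values, 11 on 9 probes missed the threshold, with standard errors of 0.295 to 0.849 against 0.0982 to 0.240 for those called. The largest was Slc16a14, an orphan of the monocarboxylate family, at -1.92 in Sir2KD1, where 1 array read -5.90 and the others -0.07 and -0.36. Slc5a5, the sodium-iodide symporter, read 2.89, 0.63 and 0.28 in Sir2KD1 (fit 1.30 ± 0.48, adjusted p = 0.196).

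Of 43 listed partner genes of carriers, 30 were measured (34 probes). Limma called 0 in Sir2OE1, 2 in Sir2OE2, 2 in Sir2KD1 and 0 in Sir2KD2 (all probes 1.06%, 2.81%, 3.59% and 1.34%). At an unadjusted p under 0.05 there were 7, 5, 7 and 5 (all probes 9.61%, 13.2%, 16.8% and 13.4%). The 10 measured genes of sodium pump subunits gave 0 calls in every line (unadjusted 2, 2, 0 and 2), with values between -0.67 and 0.76. With so few probes, 0 calls is near the share over all probes. Beside Cltrn, the calls were Slco1c1, a thyroid hormone carrier, at -0.52 ± 0.12 in Sir2OE2 (limma adjusted p = 0.0421), and Nedd4l, a ubiquitin ligase that removes channels and carriers from the membrane, at -0.65 ± 0.15 in Sir2KD1 (limma adjusted p = 0.0401).

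Markers of other cell types were set beside these results, since in bulk RNA fewer cells of a type and less RNA per cell cannot be told apart. Of 22 such genes 19 were measured, and 1 was called in each line. Over all probes 1.06%, 2.81%, 3.59% and 1.34% were called in Sir2OE1, Sir2OE2, Sir2KD1 and Sir2KD2. The duct keratin Krt19 was minus in Sir2OE1 (-0.58) and Sir2OE2 (-0.69), and the duct keratin Krt7 was plus in Sir2KD1 (0.93) and Sir2KD2 (1.29). The duct markers did not go together. Krt7 was -0.12 in Sir2OE1 and 0.24 in Sir2OE2, and Krt19 was 0.04 in Sir2KD1 and -0.30 in Sir2KD2. Sox9 stood at 0.24, 0.38, -0.11 and -0.15 in Sir2OE1, Sir2OE2, Sir2KD1 and Sir2KD2. None of these was called. Of 5 measured beta-cell markers, Pdx1 was called in Sir2KD1 (-0.77 ± 0.13, limma adjusted p = 0.00796) and not in Sir2OE1 (0.12), Sir2OE2 (-0.12) or Sir2KD2 (-0.50). The other beta-cell markers were not called in any line. In Sir2KD1, Nkx6-1 stood at 0.37, Iapp at 0.07, G6pc2 at 0.05 and Ins2 at -0.44. The part of these in the carrier results was not tested.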

How the data were processed

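RNA of 4 MIN6 lines with altered Sirt1 was measured on 14 two-colour arrays. The values used are the log2 ratios deposited by the authors; the array software, background correction, normalization and ratio direction were not given in the sources used here. Per the values themselves, each probe was centred to a sum of 0 over 6 of 7 arrays of a kind (without Sir2OE1 slide 2 or Sir2KD1 slide 2), and undoing this gave whole percent ratios for 100% of complete probes (relative tolerance 1e-05). The 6 arrays hold the line 3 times in each channel.

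Ratios were taken as channel 2 over channel 1, per the labels' channels, and the sign was turned where the line was in channel 1. Arrays of a line with opposite channels had a mean r of -0.281 as deposited (12 pairs). Centring each probe over arrays of a kind by itself favours a negative r between them, so this value cannot decide on the turn. No r for arrays with the line in the same channel is given here for comparison. Array medians ran from -0.0347 to 0.0165. With R 4.3.3, limma 3.58.1 (lmFit and eBayes) was fitted to all 14 arrays, with 1 coefficient for each line and a dye term for each kind (8 residual degrees of freedom). It covered the 23230 probes that had a value on 2 or more arrays in every line, with Benjamini-Hochberg adjustment at 0.05. The script was tested on simulated data. Intensities were not used, so no signal over background can be given, and precision is limited by how many arrays there are.

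Of 23232 probes, 16885 had 1 symbol, 143 several and 6204 none in the platform annotation; 16205 symbols were updated through Entrez identifiers (names of GRCm38.p6), which changed 0 carrier symbols. Probes with the fixed ratio seen in 329 (overexpression) and 173 (knockdown) probes included 0 carriers. The members and all gene lists were chosen with earlier results of these data known. Named were, per line, up to 5 called probes per side with the largest absolute ratio, probes called in both kinds of line, called differences between kinds, and the 13 carriers with a described role in beta cells, with all other probes of those genes (24 genes, 28 probes).

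Alternatives were other dye terms, array weights, robust shrinkage, arrays of 1 kind only, filters, ratios without the turn, knockdown ratios turned, the line as the replicate, slide number as a block, the mean of a gene's probes, and each array left out. Residuals of same-numbered slides of different lines had r from -0.389 to 0.237 over 19 pairs, against -0.538 to 0.498 over 54 other pairs. Within a kind, the shared dye term by itself makes residuals correlate. These r therefore cannot show whether same-numbered slides deviate together. Slide numbers were not taken to pair arrays, because the design does not show such a pairing. Promoter windows are RefSeq's.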

Additional observations from a re-analysis of the deposited data

Results flagged for a closer look

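Slc37a2 differed between the knockdown lines, which share the mU6pro control: Sir2KD1 minus Sir2KD2 was -1.26 (limma adjusted p = 0.00431), with -1.97 in Sir2KD1 and -0.71 in Sir2KD2 and every Sir2KD1 array below every Sir2KD2 array.

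Between the overexpressing lines, which share the Neo pool, Slc35b4 (probe 2908) differed by -1.45 (limma adjusted p = 0.0229), with 3 of 3 Sir2OE1 arrays minus and 4 of 4 Sir2OE2 arrays plus, and Slc40a1 by 1.31 (limma adjusted p = 0.0471), with all arrays of both lines minus. The second probe of Slc35b4 did not show this difference.

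Among 56 groups of 4 arrays of named probes, 1 had an array far from the others: Slc7a8 on Sir2KD2 slide 2 read -0.0920, while the other Sir2KD2 arrays read -0.347 to -0.323. Chance gives such an array in about 5% of groups.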

How the results depend on the processing

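Of 31 called values of named probes, 0 changed sign and 8 stayed called under every alternative that keeps the turn, one sign for both kinds and the array as the replicate: Slc37a2, Slc40a1, both probes of Slc38a4, Slc7a8 and Slc35b4 in Sir2OE2, Slc37a2 in Sir2KD1, and the overexpression minus knockdown difference of Slc7a11. The Slc7a11 difference needs both kinds of array, so the fit to arrays of the same kind only could not be applied to it. That fit computed 28 of the 31 values and kept 9 called. Without any 1 array, 13 of the 31 stayed called. Counts of called carrier probes follow in the order Sir2OE1, Sir2OE2, Sir2KD1, Sir2KD2, Sir2OE1 minus Sir2OE2, Sir2KD1 minus Sir2KD2 and overexpression minus knockdown, where limma gave 2, 8, 11, 6, 2, 1 and 3. Over the arrays left out in turn they ran from 0 to 2, 6 to 9, 6 to 12, 2 to 7, 0 to 2, 1 to 2 and 1 to 5 (where 0, unadjusted p under 0.05 in 15 to 30). Without a dye term they were 11, 14, 23, 12, 7, 7 and 14. Each probe's mean over 6 arrays of a kind had already been taken out, so this fit counts as free what the centring had used. Its higher counts are therefore no support for the calls. Without the turn and the dye term together all were 0 (unadjusted 5, 0, 18, 1, 7, 17 and 0); values that sum to 0 over 6 of 7 arrays leave no mean over a kind's lines to test. With arrays of the same kind only, Sir2OE1, Sir2KD2 and both differences within a kind fell to 0 (unadjusted 32, 39, 22 and 29) and Sir2KD1 to 3, with fewer arrays to estimate the spread. With 1 dye term Sir2KD1 had 17, Sir2KD1 minus Sir2KD2 5 and overexpression minus knockdown 6. Array weights gave 40 in Sir2OE2, 7 in Sir2KD1 and 5 in overexpression minus knockdown, and robust shrinkage 1 in Sir2OE1 minus Sir2OE2. Turning the knockdown ratios gave 17 in overexpression minus knockdown, with 0 of the 3 main probes among them, and the line as the replicate gave 0 (unadjusted 20); the Slc7a11 difference was not called in either. The mean of a gene's probes left 0 nucleoside and nucleotide sugar carriers called, against 1 (Slc35b4, unlike probes). Elsewhere the cause was not tested.

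With slide number as a replicate block, which the design does not show to pair arrays, Sir2OE1 had 0 calls (unadjusted 29), Sir2KD1 4, Sir2KD2 2, and both differences within a kind 0 (unadjusted 16 and 22); 12 of the 31 called values were kept. The 14 arrays, the unstated ratio direction and the pair of lines per kind limit all values.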
